A study of Mus with 6 samples.

Results

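The heat shock genes followed here were 10 chaperones and co-chaperones, namely Hspa1a, Hspa1b, Dnajb1, Hsph1, Hspb1, Hspa8, Hsp90aa1, Bag3, Hspe1 and Hspd1. They were measured in mouse lens epithelial cells (LECs) at 0 h and at 6 h post cataract surgery (PCS), which removes the lens fiber cells and leaves the epithelium on the lens capsule. The count tables identify genes by Ensembl ID, and an ID could be paired with a symbol for 6 of the 10 genes, all of which were among the 16810 tested of 55421 counted genes. Hspa8, Hsp90aa1, Hspe1 and Hspd1 were not analysed here.

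All 6 libraries came from the lens capsules of wildtype C57BL/6 mice, labelled as 2 months old although the methods give an older range for this surgery. Each library was made from total RNA of a pool of 5 capsules, with 3 libraries in the 0 h libraries and 3 at 6 h PCS. A mouse had surgery on the first eye, and 6 h later had the second eye operated on and was sacrificed, after which both capsules were taken. The 0 h capsules therefore came from the freshly operated eye of animals whose first eye had been injured 6 h before, and which pools share animals is not given. Capsules taken straight after fiber cell removal stood as the uninjured state.

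Heat shock proteins keep other proteins folded and are made in larger amounts when cells meet heat, injury or damaged protein. HSP70 proteins bind and release unfolded segments in a cycle driven by ATP, J-domain partners such as DNAJB1 hand them their clients, and nucleotide exchange factors such as BAG3 and HSPH1 open them again. Small heat shock proteins such as HSPB1 hold unfolding proteins without ATP, and HSF1 is the transcription factor that switches the inducible members on. The lens is known for its dependence on proteins of this kind, since its alpha crystallins belong to the small heat shock family and its fiber cells do not replace their proteins.

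Dnajb1, Hspa1a, Hspb1 and Bag3 were upregulated at 6 h PCS, by 7.17-fold, 3.54-fold, 3.798-fold and 3.21-fold, while Hspa1b and Hsph1 did not pass the test. The value of Hspa1a alone is uncertain, because its reads can be split with the near-identical Hspa1b: counted as a sum the pair was 1.88-fold higher and not called under the limits below, which leaves 3 calls. Of the 6 genes 4 were upregulated differentially expressed genes (DEGs, a false discovery rate of at most 0.05 and a change of more than 2-fold) and 0 were downregulated by edgeR, DESeq2 or the exact test or at an unadjusted p under 0.05, against 5.35% of all tested genes called as DEGs, 4.53% as upregulated and 0.821% as downregulated. By the false discovery rate alone the same 4 genes were higher, against 6.31% of all tested genes. The median log2 fold change of the 6 genes was 1.75, against -0.003 for all tested genes. These shares cannot be set against each other, because the genes with a symbol were richer in changed genes. Of the 6366 tested genes with a symbol 11.6% were upregulated DEGs, against 4.53% of all tested genes. The 4 called heat shock genes are also named in the lists of changed genes for this very contrast.

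The libraries held 20253239 to 24701039 counts on genes in the 0 h libraries and 18039974 to 22496116 at 6 h PCS. In 6 h replicate 1 the share of read pairs on genes was 33.6%, against 39.5% to 41.2% in the other libraries. There 44.1% of read pairs were not aligned (34.2% to 40.0% in the others), and the most abundant gene held 23.3% of counts (14.8% to 17.7% in the others). The lens epithelial markers Pax6, Foxe3, Sox2 and Epha2 summed to 678 to 875 TMM-normalized CPM (counts scaled to a common library size of 1000000) in the 0 h libraries and 621 to 796 CPM at 6 h PCS. Pax6 makes up most of that sum, and the others moved apart: Epha2 was an upregulated DEG (log2 fold change 1.21, adjusted p = 0.0134 by edgeR) and Sox2 was lower under the fold limit (-0.70, adjusted p = 0.0151 by edgeR). Lens fiber markers were not analysed here. Markers of iris and ciliary body pigment cells varied most between libraries, and 6 h replicate 3 stood apart with 1965 CPM over Tyr, Tyrp1, Dct and Pmel. In bulk samples such as these, fewer cells of a type and less RNA per cell cannot be told apart.

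**Figure D1:**
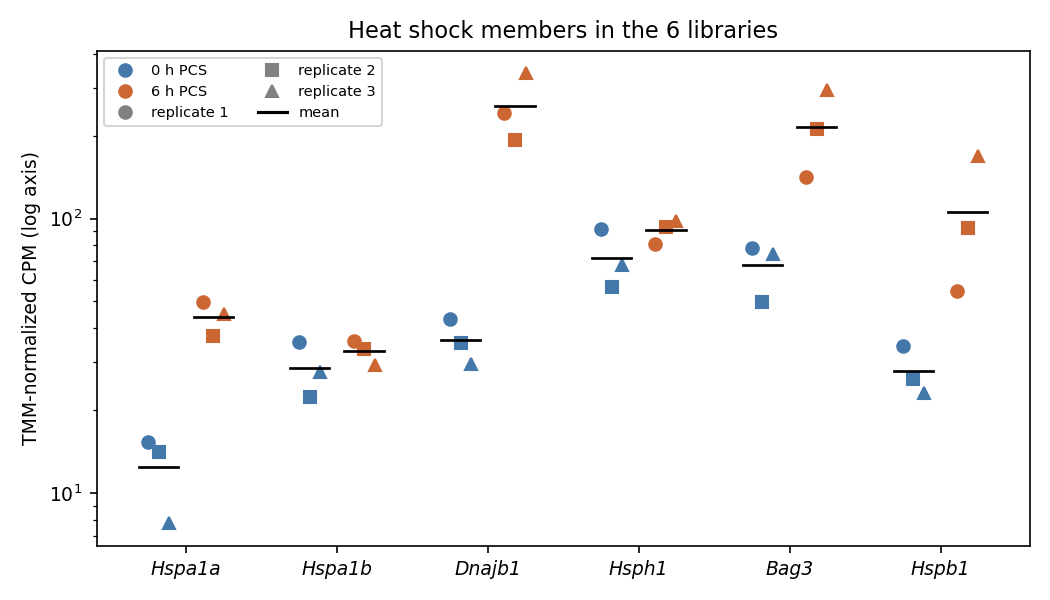
TMM-normalized CPM (log axis) of the 6 heat shock genes in the 6 libraries, with 0 h PCS in blue, 6 h PCS in orange, a marker shape for each replicate and a bar for the mean. Dnajb1, Hspa1a, Bag3 and Hspb1 have every 6 h library above every 0 h library, while the groups overlap for Hspa1b and Hsph1.

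Hspa1a and Hspa1b encode near-identical forms of the inducible HSP70. Hspa1a (ENSMUSG00000091971) lies at chr17:34969359-34972156 and Hspa1b (ENSMUSG00000090877) at chr17:34956429-34959238 of GRCm38.p6, with 10120 bases between them and Hspa1l starting 546 bases past the end of Hspa1a. No other annotated gene overlaps either of them.

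Hspa1a was at 15.4, 14.1 and 7.77 CPM in 0 h replicates 1, 2 and 3 and at 49.7, 37.2 and 45.1 CPM in 6 h replicates 1, 2 and 3. The lowest 6 h library was 2.42 times the highest 0 h library, so the groups did not overlap, as was the case with the 6 h libraries higher for 15.3% of all tested genes. The mean went from 12.4 ± 4.08 to 44.0 ± 6.32 CPM (SD, n = 3 each), and the log2 fold change in edgeR's quasi-likelihood test was 1.82 (SE 0.25, 95% interval 1.26 to 2.39, adjusted p = 0.00251). Hspa1a was a DEG in 6 of 6 fits that left out a library, with log2 fold changes from 1.57 to 2.00.

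Hspa1b was at 35.4, 22.4 and 27.7 CPM at 0 h PCS and at 35.9, 33.6 and 29.3 CPM at 6 h PCS. The highest 0 h library lay within the range of the 6 h libraries. The means of 28.5 ± 6.55 and 32.9 ± 3.37 CPM (SD, n = 3 each) differed by a log2 fold change of 0.21, with a 95% interval of -0.22 to 0.64 and an adjusted p of 0.564 by edgeR. The upper end of that interval lies below the lower end of the interval for Hspa1a. When libraries were scaled by their size alone the log2 fold change of Hspa1b became -0.10, so its direction is not set by these data.

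Because the coding parts of both genes are nearly the same, read pairs from either gene can be assigned to the other or lost as ambiguous alignments, and the values of each gene alone are uncertain. From 2.01% to 2.44% of read pairs in the 0 h libraries, and from 2.52% to 2.83% in the 6 h libraries, were set aside as not uniquely aligned over the whole genome. Hspa1a held 30.3% (95% exact Clopper-Pearson interval 27.6 to 33.0), 38.7% (35.7 to 41.8) and 21.9% (19.1 to 24.9) of the counts of the pair in 0 h replicates 1, 2 and 3. In 6 h replicates 1, 2 and 3 it held 58.1% (55.3 to 60.8), 52.5% (50.0 to 55.0) and 60.6% (57.8 to 63.4). The intervals cover counting error only. The share was higher in all 3 libraries at 6 h PCS than in any at 0 h PCS, and its spread among the 0 h libraries went beyond counting error.

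**Figure D2:**
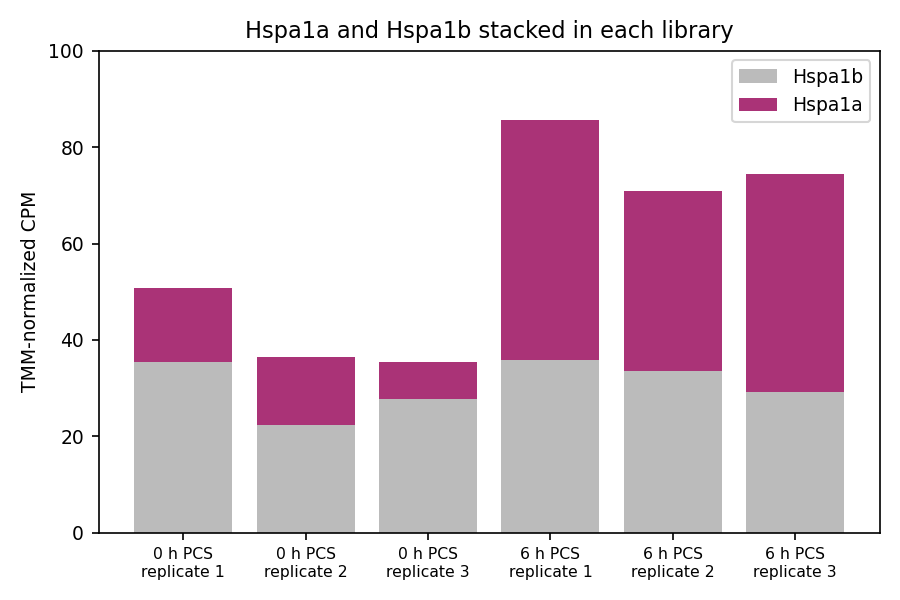
TMM-normalized CPM of Hspa1b (grey) and Hspa1a (purple) stacked in each of the 6 libraries, so that bar height is the sum of the pair. The sum was 35.5 to 50.8 CPM in the 0 h libraries and 70.9 to 85.6 CPM at 6 h PCS, and the purple part accounts for most of the added height.

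Summed over the pair, which does not depend on how read pairs were split between the genes but still misses those set aside as not unique, the level was 50.8, 36.5 and 35.5 CPM in the 0 h libraries and 85.6, 70.9 and 74.3 CPM at 6 h PCS. All 6 h libraries were above all 0 h libraries. The mean went from 40.9 ± 8.55 to 76.95 ± 7.73 CPM (SD, n = 3 each), a log2 fold change of 0.91 (SE 0.17, 95% interval 0.53 to 1.29, adjusted p = 0.0109 by edgeR). The sum passed the false discovery limit at 1.88-fold and stayed short of the 2-fold limit for a DEG. Without 0 h replicate 1 it passed both, with a log2 fold change of 1.09 and an adjusted p of 0.0132, and without 0 h replicate 3 it passed neither, at 0.81 and an adjusted p of 0.0532 by edgeR.

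Dnajb1 encodes the J-domain protein that delivers clients to inducible HSP70. Dnajb1 (ENSMUSG00000005483, chr8:83608175-83612653) was at 43.2, 35.3 and 29.6 CPM at 0 h PCS and at 242, 193 and 339 CPM at 6 h PCS. The groups lay far apart, with the lowest 6 h library 4.47 times the highest 0 h library. The mean went from 36.0 ± 6.81 to 258 ± 74.2 CPM (SD, n = 3 each), and the log2 fold change was 2.84 (SE 0.23, 95% interval 2.32 to 3.36, adjusted p = 0.000212 by edgeR). Of the 762 upregulated DEGs, 202 had a larger log2 fold change than Dnajb1. It was a DEG in 6 of 6 fits that left out a library, with log2 fold changes from 2.59 to 3.00, and of the 6 heat shock genes it alone passed a test against a fold change of 2 itself (glmTreat, adjusted p = 0.0016).

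Hsph1 encodes HSP110, a relative of HSP70 that acts on it as a nucleotide exchange factor. Hsph1 (ENSMUSG00000029657, chr5:149616843-149636498) was at 91.6, 56.4 and 67.5 CPM at 0 h PCS and at 81.2, 93.3 and 98.0 CPM at 6 h PCS. The highest 0 h library was above the lowest 6 h library. The means were 71.9 ± 17.99 and 90.8 ± 8.64 CPM (SD, n = 3 each), and the log2 fold change of 0.34 had a 95% interval of -0.07 to 0.75 and an adjusted p of 0.31 by edgeR. That interval leaves out a 2-fold change in either direction. Scaled by library size alone the log2 fold change was 0.03.

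Bag3 encodes a co-chaperone that exchanges nucleotide on HSP70, binds small heat shock proteins and directs clients to autophagy. Bag3 (ENSMUSG00000030847, chr7:128523583-128546981) was at 78.1, 49.9 and 74.7 CPM at 0 h PCS and at 142, 212 and 296 CPM at 6 h PCS. Every 6 h library exceeded every 0 h library, and replicate 3 was the highest of the 6 h libraries and replicate 1 the lowest. The mean went from 67.6 ± 15.4 to 217 ± 77.1 CPM (SD, n = 3 each), a log2 fold change of 1.68 (SE 0.28, 95% interval 1.04 to 2.32, adjusted p = 0.00888 by edgeR). Bag3 was a DEG in 6 of 6 fits that left out a library, with log2 fold changes from 1.39 to 1.91.

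Hspb1 encodes HSP27, a small heat shock protein that holds unfolding proteins and binds actin. Hspb1 (ENSMUSG00000004951, chr5:135887919-135889563) was at 34.3, 26.1 and 23.2 CPM at 0 h PCS and at 54.5, 92.8 and 170 CPM at 6 h PCS. The groups did not overlap, but the 6 h libraries differed among themselves with a coefficient of variation of 55.6%. The mean went from 27.8 ± 5.73 to 106 ± 58.8 CPM (SD, n = 3 each), a log2 fold change of 1.93 (SE 0.42, 95% interval 0.93 to 2.92, adjusted p = 0.04 by edgeR). The call was close to the limit: Hspb1 stayed a DEG only without 6 h replicate 1 or without 6 h replicate 3, and lost the call without any other library. Over the 6 fits that left out a library the log2 fold change ran from 1.40 to 2.23 and the adjusted p from 0.00652 to 0.12.

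**Figure D3:**
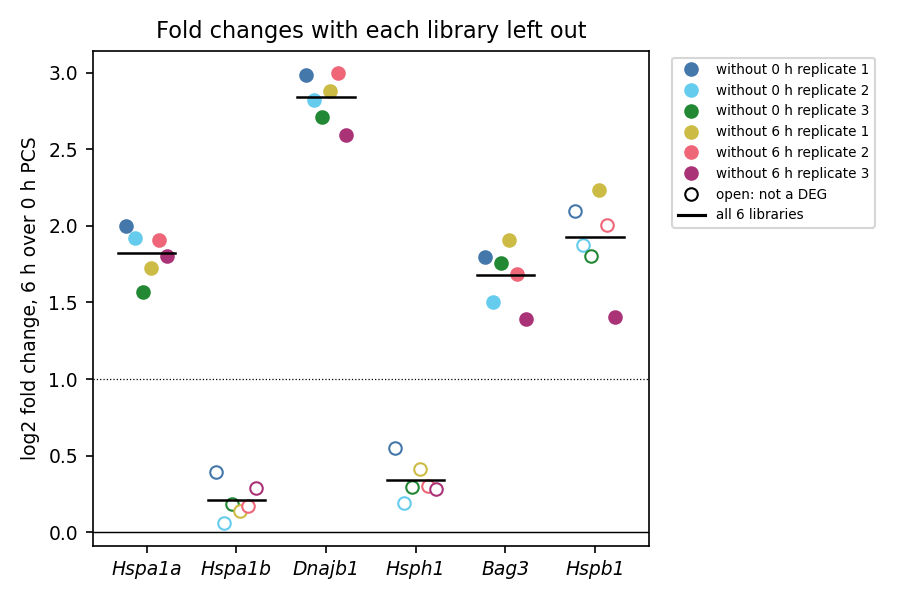
log2 fold change of 6 h over 0 h PCS for the 6 heat shock genes, with each library left out in turn (1 colour per library) and a bar for the fit on all 6 libraries. Filled points are DEGs and open points are not, and the dotted line marks a 2-fold change. Hspa1a, Dnajb1 and Bag3 are filled in 6 of 6 fits and Hspb1 in 2 of 6.

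Exon lengths were at hand for the 4 upregulated genes, so that their levels could be set against each other as FPKM (fragments per kilobase of exon and 1000000 counts). At 0 h PCS the order was Hspb1 at 30.03 ± 5.495 FPKM, Bag3 at 29.4 ± 6.73, Dnajb1 at 12.5 ± 2.07 and Hspa1a at 4.64 ± 1.44 (SD, n = 3 each). The libraries of Hspb1 and Bag3 overlapped at 0 h PCS, and the other neighbours in the order did not. At 6 h PCS the means were 92.4 ± 50.5 FPKM for Hspb1, 76.3 ± 28.2 for Bag3, 71.6 ± 18.3 for Dnajb1 and 13.2 ± 0.727 for Hspa1a (SD, n = 3 each). At that time Hspb1, Bag3 and Dnajb1 overlapped, and Hspa1a remained below all of their libraries. The level of Hspa1a can miss read pairs assigned to Hspa1b or set aside as not unique, so its place in both orders is uncertain. Each of the 4 genes differed between the time points by more than the 2 FPKM that the study asked of a biologically significant DEG, from 8.54 FPKM for Hspa1a to 62.3 FPKM for Hspb1.

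The balance between partners was described by ratios of CPM, which were chosen after the values were seen and are given with no test. Dnajb1 over the sum of Hspa1a and Hspa1b was 0.851, 0.966 and 0.836 in the 0 h libraries and 2.83, 2.73 and 4.56 at 6 h PCS, which is 3.71-fold higher on average of the logs. The sum misses read pairs set aside as not unique, so the level of this ratio is uncertain. Dnajb1 over Hsph1 was 0.472, 0.625 and 0.439 in the 0 h libraries and 2.98, 2.07 and 3.46 at 6 h PCS, or 5.49-fold higher. In both ratios all 6 h libraries were above all 0 h libraries, and since each ratio is formed within a library it does not depend on the scaling between libraries. 

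The libraries within a time point also had an order. In 0 h replicate 1 the levels of 6 of 6 heat shock genes were the highest of the 0 h libraries, as were 6 of 6 immediate early genes (Fos, Fosb, Jun, Junb, Atf3 and Ier2) and 4 of 4 pigment cell markers, against 30.7% of all tested genes. The immediate early genes summed to 699, 371 and 186 CPM in 0 h replicates 1, 2 and 3 and to 4954, 3235 and 7003 CPM in 6 h replicates 1, 2 and 3. At 6 h PCS replicate 3 was the highest for Dnajb1, Hsph1, Bag3 and Hspb1 and for 5 of 6 immediate early genes, against 34.1% of all tested genes, while replicate 1 was the highest for Hspa1a and Hspa1b. What part the order of the libraries has in the levels of the heat shock genes was not tested.

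Hspb1, Bag3 and Hsph1 ranked the 6 h libraries as the pigment cell markers did, and Dnajb1, Hspa1a and Hspa1b did not. Tyr, Tyrp1, Dct and Pmel, 4 of 5 listed markers, summed to 209, 63.8 and 51.4 CPM in 0 h replicates 1, 2 and 3 and to 77.4, 456 and 1965 CPM in 6 h replicates 1, 2 and 3, with 0 of 4 called as DEGs by edgeR, DESeq2 or the exact test and 0 of 4 at an unadjusted p under 0.05. Hspb1, Bag3 and Hsph1 had the same order as these markers at 6 h PCS, and so had Hspb8, another small heat shock gene, at 14.7, 26.4 and 60.6 CPM, and Hspa5, the HSP70 of the endoplasmic reticulum. With 3 libraries few orders are possible, and the share of all tested genes with this order was not counted. Replicate 3 was the highest of the 6 h libraries for 34.1% of all tested genes. In 6 h replicate 1 the sum of the pigment markers was within the range of the 0 h libraries, with Tyr below all of them. In that library Hspb1 at 54.5 CPM and Bag3 at 142 CPM were above every 0 h library, and Hsph1 at 81.2 CPM was within their range. With all 6 libraries the log2 fold changes of Dnajb1, Hspa1a, Bag3, Hspb1, Hsph1 and Hspa1b were 2.84, 1.82, 1.68, 1.93, 0.34 and 0.21. Without 6 h replicates 2 and 3, left out after the levels were seen, the values in the same order were 2.70, 1.95, 1.02, 0.92, 0.12 and 0.28. They are given as values only, since 1 library then stands for 6 h PCS, and the part of pigment cells in the change was not tested.

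**Figure D4:**
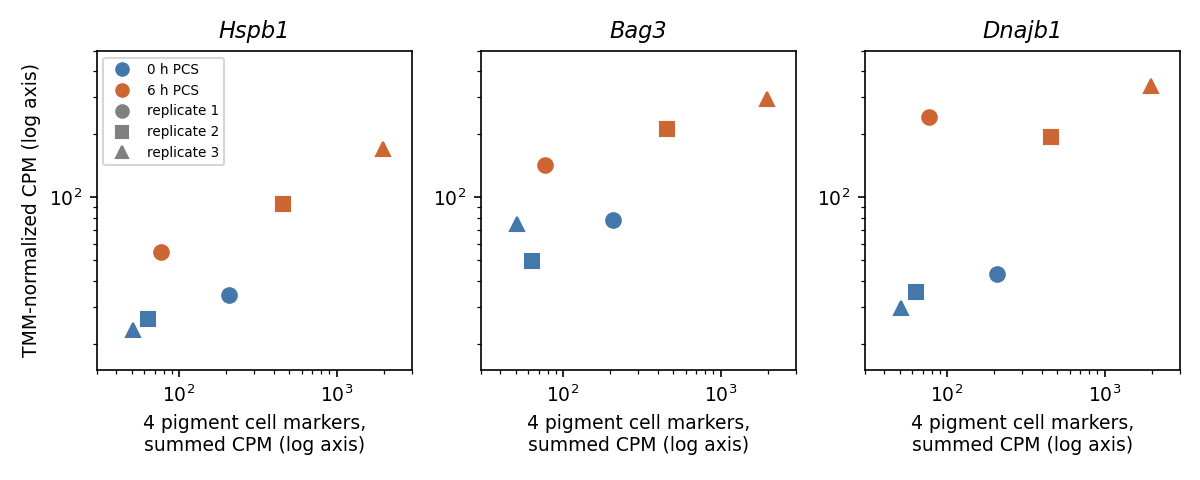
TMM-normalized CPM of Hspb1, Bag3 and Dnajb1 (log axis) against the summed CPM of Tyr, Tyrp1, Dct and Pmel (log axis) in the 6 libraries, with 0 h PCS in blue, 6 h PCS in orange and a marker shape for each replicate. 6 h replicate 1 sits among the 0 h libraries on the horizontal axis and above all of them on the vertical axis for all 3 genes. Hsph1 is not shown, and in that library it was within the range of the 0 h libraries.

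Of the markers of other cell types, those of erythrocytes and the single leukocyte gene Cd68 passed the test, where 4.53% of all tested genes and 11.6% of those with a symbol were upregulated DEGs. Erythrocyte markers were DEGs in 5 of 5 cases, with a sum of 7.94 to 19.5 CPM in the 0 h libraries and 73.5 to 133 CPM at 6 h PCS. Of 5 leukocyte markers with a symbol, of 10 listed, 1 was a DEG (Cd68), the sum went from 13.03 to 21.1 CPM to 16.3 to 31.4 CPM, and Ptprc, which defines leukocytes, was at most 3.24 CPM in any library. Of 3 corneal epithelial markers 0 were DEGs by edgeR, 3 had an unadjusted p under 0.05 and 2 (Krt12 and Krt5) were called by DESeq2 and by the exact test. These tools called more of the 16810 tested genes, 1331 and 1255, against 900 by edgeR's quasi-likelihood test. Krt12 was at 0.437 to 7.01 CPM at 0 h PCS and at 44.2 to 65.8 CPM at 6 h PCS (adjusted p = 0.0792 by edgeR). Aldh3a1 lay the other way, at 436 ± 77.3 CPM at 0 h PCS and at 279 ± 60.1 CPM at 6 h PCS (SD, n = 3 each, log2 fold change -0.64, adjusted p = 0.0725 by edgeR). Endothelial markers summed to 4.10 to 26.3 CPM in the 0 h libraries and 20.0 to 36.9 CPM at 6 h PCS, with 0 of 4 called by edgeR, 2 of 4 (Pecam1 and Cdh5) at an unadjusted p under 0.05 and the same 2 called by DESeq2 and by the exact test. The part of these cells in the change of the heat shock genes was not tested.

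Most genes of the wider set of chaperone and stress genes were not called. Of 130 further genes listed by role, 33 had a symbol and 32 were tested, with 5 upregulated DEGs, 1 downregulated DEG and a median log2 fold change of 0.13, against 4.53% upregulated and 0.821% downregulated DEGs among all tested genes. The genes with a symbol again lean towards changed genes.

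**Figure D5:**
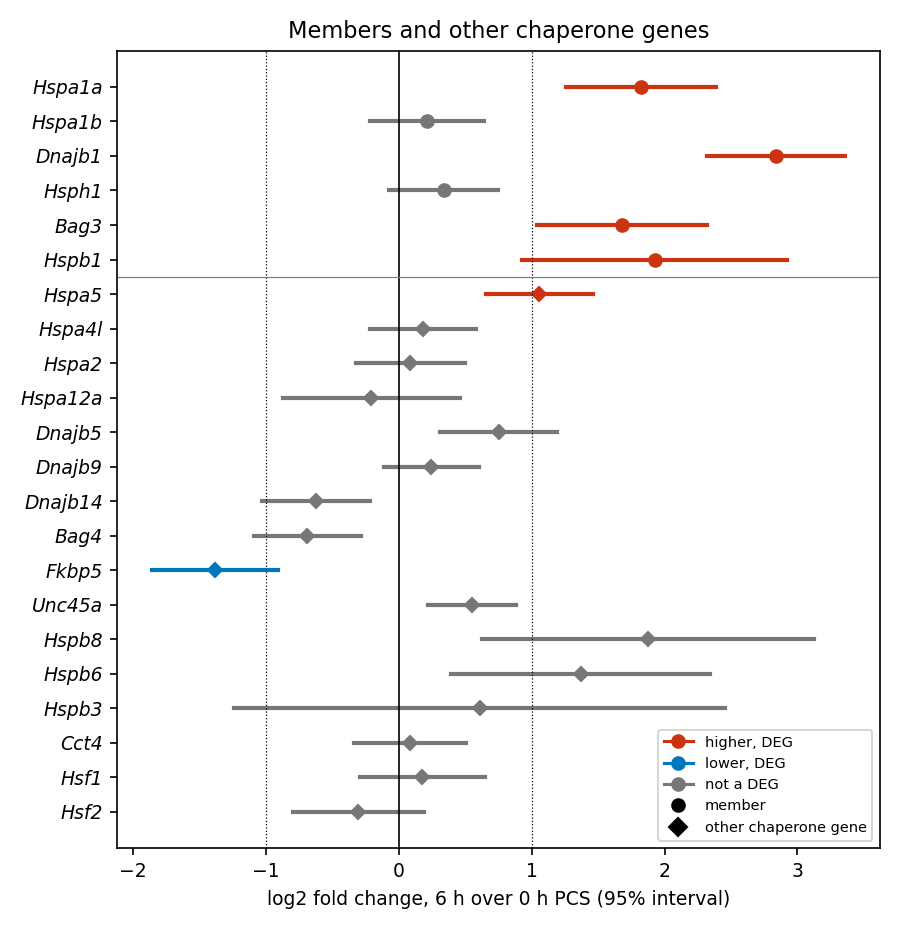
log2 fold change of 6 h over 0 h PCS with its 95% interval for the 6 heat shock genes (circles, above the line) and for other chaperone genes (diamonds), with DEGs in red when higher and blue when lower. Dotted lines mark a 2-fold change. Dnajb1, Hspa1a, Bag3, Hspb1 and Hspa5 are higher, Fkbp5 is lower, and the intervals of Hspa1b, Hsph1, Hsf1 and Hsf2 include 0.

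Among Hspa2, Hspa4l and Hspa12a, the tested HSP70 relatives outside the endoplasmic reticulum, 0 of 3 were DEGs by edgeR, DESeq2 or the exact test, and 0 of 3 had an unadjusted p under 0.05. Hspa4l, an HSP110 relative and the highest of them in CPM, was at 84.5 ± 12.3 CPM in the 0 h libraries and 96.2 ± 20.7 CPM at 6 h PCS (SD, n = 3 each), with a log2 fold change of 0.19. Of 11 J-domain genes besides Dnajb1, 0 were DEGs by any of these tools and 2 had an unadjusted p under 0.05, Dnajb5 and Dnajb14, which differed in opposite directions. Dnajb5 was 1.68-fold higher at 6 h PCS with an adjusted p of 0.0459 by edgeR and stayed under the fold limit, with an adjusted p of up to 0.176 when a library was left out, and Dnajc3, the highest in CPM, had a log2 fold change of -0.10. The interval for Dnajb1 lay above those of Dnajb5, Dnajb9 and Dnajb14, its tested relatives of the DNAJB class shown in the plot of fold changes. Bag4, the only BAG relative of Bag3 that was tested, was 20.3 to 22.3 CPM in the 0 h libraries and 11.6 to 14.8 CPM at 6 h PCS, a log2 fold change of -0.69 (adjusted p = 0.0447 by edgeR) that is opposite in sign to that of Bag3. It stays short of the fold limit, and it missed the false discovery limit in 6 of 6 fits that left out a library (adjusted p from 0.0626 to 0.145).

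Small heat shock genes other than Hspb1 had a median log2 fold change of 1.37, with 0 of 3 called by edgeR, 2 of 3 at an unadjusted p under 0.05 and those 2, Hspb8 and Hspb6, called as upregulated by DESeq2 and by the exact test. DESeq2 called 1331 and the exact test 1255 of the 16810 tested genes as DEGs, against 900 by edgeR's quasi-likelihood test. Hspb8, the partner of BAG3, was at 9.22 ± 2.40 CPM in the 0 h libraries and 33.9 ± 23.9 CPM at 6 h PCS (SD, n = 3 each, log2 fold change 1.88, adjusted p = 0.0839 by edgeR), with no overlap between the groups. Its value leaned on 6 h replicate 3, without which the log2 fold change was 1.16. Hspb6 was at 6.60 ± 3.83 and 17.1 ± 6.33 CPM (log2 fold change 1.37, adjusted p = 0.0915 by edgeR), and its groups overlapped. The alpha crystallins were not analysed here.

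Of 2 HSP90 co-chaperones, Fkbp5, an immunophilin of steroid receptor complexes that glucocorticoids induce, was downregulated from 39.5, 65.2 and 41.2 CPM to 20.1, 18.8 and 17.1 CPM. Its log2 fold change was -1.38 (SE 0.21, adjusted p = 0.004 by edgeR), and it was a DEG in 6 of 6 fits that left out a library. Unc45a, a myosin chaperone, had a log2 fold change of 0.55 (adjusted p = 0.0505 by edgeR). Cct4 of the cytosolic chaperonin and Dnaja3 of mitochondria, each the only tested gene of its list, had log2 fold changes of 0.09 and -0.16.

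The heat shock factors Hsf1 and Hsf2 themselves were not called by edgeR, DESeq2 or the exact test, and 0 of 2 had an unadjusted p under 0.05. Hsf1 was at 26.1, 19.2 and 26.7 CPM at 0 h PCS and at 28.3, 20.7 and 32.5 CPM at 6 h PCS, with a log2 fold change of 0.18 (95% interval -0.30 to 0.65). Hsf2 was at 23.6 ± 3.18 and 19.1 ± 5.07 CPM (SD, n = 3 each), with a log2 fold change of -0.30 (95% interval -0.80 to 0.19). Both intervals leave out a 2-fold change, and with scaling by library size alone the log2 fold change of Hsf1 was -0.15. HSF1 is known to be switched on by trimerization and phosphorylation of protein already present, which RNA levels do not measure, and Hsf4, the factor known from lens development, was not analysed here.

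Of 17 other known targets of heat shock factors 5 had a symbol and were tested, 3 were upregulated DEGs (against 4.53% of all tested genes and 11.6% of those with a symbol), and the median log2 fold change was 1.19. Ier5, which assists HSF1 and is also an immediate early gene, was at 19.8, 14.9 and 14.3 CPM at 0 h PCS and at 158, 236 and 211 CPM at 6 h PCS (log2 fold change 3.62, SE 0.20, adjusted p = 3.55e-05 by edgeR). All 6 h libraries were above all 0 h libraries, and Ier5 was a DEG in 6 of 6 fits that left out a library. Rgs2, a regulator of G protein signalling, was called with a log2 fold change of 1.19 (adjusted p = 0.0263 by edgeR) and kept that call in 2 of 6 such fits, but not when scaled by library size alone. Sqstm1, the autophagy receptor p62 and the highest of the list in CPM, was 1.87-fold higher (adjusted p = 0.0227 by edgeR), under the fold limit, with an adjusted p of up to 0.0811 when a library was left out.

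Among the chaperones and stress factors of the endoplasmic reticulum, 7 of 19 listed genes had a symbol and were tested, and 2 of the 7 were upregulated DEGs (against 4.53% of all tested genes and 11.6% of those with a symbol) and none was downregulated (against 0.821% of all tested genes). Hspa5, the HSP70 of that compartment and the highest of the list in CPM, was at 219, 214 and 210 CPM at 0 h PCS and at 329, 473 and 537 CPM at 6 h PCS. All 6 h libraries were above the 0 h libraries, which differed little among themselves. Its log2 fold change was 1.06 (SE 0.18, 95% interval 0.65 to 1.46, adjusted p = 0.00719 by edgeR), just past the fold limit, and it lost the call without 6 h replicate 2, without 6 h replicate 3 and when scaled by library size alone. Atf4, a transcription factor of the stress response, had a log2 fold change of 1.10 (SE 0.16, adjusted p = 0.00286 by edgeR) and lost the call without 0 h replicate 2 and with that scaling.

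The genes whose levels followed Hspa1a most closely over the 6 libraries, among 6360 tested genes with a symbol besides the heat shock genes, were Junb, Gm17024, Dusp1, Rrad and Ier2, with Pearson correlations of log2 CPM of 0.998, 0.997, 0.997, 0.996 and 0.994. Junb and Ier2 are immediate early genes and Dusp1 encodes a phosphatase of MAP kinases. These correlations are over 6 libraries that share the difference between the time points, and are given as a description.

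Scaling matters for the size of all these changes. With TMM the median log2 fold change of all tested genes was -0.003, with 762 upregulated and 138 downregulated DEGs, and with scaling by library size alone it was -0.32, with 572 and 627. The 4 calls among the heat shock genes held with either scaling, at log2 fold changes of 2.52 for Dnajb1, 1.62 for Hspb1, 1.50 for Hspa1a and 1.38 for Bag3 by library size.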

How the data were processed

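Total RNA from lens capsules was ribodepleted, converted to stranded libraries and sequenced in pairs. Per the labels and methods, the authors aligned read pairs with HISAT2 to GRCm38.p6 and counted them on Ensembl genes with HTSeq in union mode. The deposited values are raw counts per gene, and the 5 HTSeq summary rows per file were left out of library sizes. Counts were tested with edgeR 4.0.16 in R 4.3.3 (TMM, filterByExpr, robust quasi-likelihood F-test, Benjamini-Hochberg adjustment over 16810 genes), and CPM are TMM-normalized. A DEG had an adjusted p of at most 0.05 and a change above 2-fold. FPKM were computed from counts and the study's exon lengths. The authors' own fold change and p-value columns were not used.

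Symbols came from the study's gene tables and coordinates from RefSeq on GRCm38.p6. The strand setting of the counting is not given in the sources used here. Members and gene lists were chosen with earlier results of these data known. Named in the text are all members, the called genes and the gene with the highest CPM of each list (at most 5 called), the heat shock factors, Hspa5, and the 5 genes most correlated with Hspa1a; genes just outside the limits were added after their values were seen. Alternatives were DESeq2 1.42.0, edgeR's exact test and glmTreat, other scalings and filters, a replicate block and leaving out each library. The edgeR test was checked on simulated counts that gave every gene the same relative spread between libraries. That check does not cover genes as variable as Hspb1 at 6 h PCS. The replicates are pools, so p-values measure the spread between pools. Values of 1 called gene of the lists are not reported here. Analyses that need Hspa8, Hsp90aa1, Hspe1 or Hspd1 were not run.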

Additional observations from a re-analysis of the deposited data

How the results depend on the processing

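The direction of Hspa1a, Dnajb1, Bag3, Hspb1, Hsph1 and the summed HSP70 pair was the same in every alternative run, and that of Hspa1b turned in 1, to -0.10 with scaling by library size alone. Of the 6 heat shock genes, 4 were DEGs in the main analysis, 3 to 4 with a library left out, 2 with 6 h replicate 1 as the only 6 h library (added after the values were seen, and assumed to vary like the 0 h libraries) and 1 with glmTreat, by which Hspa1a had a log2 fold change of 1.82 (adjusted p = 0.0596), Bag3 1.68 (0.186) and Hspb1 1.93 (0.346). By the false discovery rate alone 4 passed, 3 to 4 with a library left out and 1 with glmTreat. Bag3 also missed the limit with 6 h replicate 1 alone (1.02, adjusted p = 0.053). Hspb1 was not a DEG with no filter on low counts (1.91, adjusted p = 0.132), with 6 h replicate 1 alone (0.92, 0.047) and without 0 h replicate 1, 0 h replicate 2, 0 h replicate 3 or 6 h replicate 2, within the 1.40 to 2.23 of all such fits, while DESeq2 and edgeR's exact test called it. The summed pair had a log2 fold change of 0.81 to 1.09 with a library left out, passed the fold limit without 0 h replicate 1 (1.09) and with 6 h replicate 1 alone (1.01), and missed the false discovery limit without 0 h replicate 3 (0.81, adjusted p = 0.0532). Over all genes 900 DEGs became 221 with glmTreat and 553 to 877 with a library left out, the lowest without 0 h replicate 1; with no filter on low counts there were 1301 and with DESeq2 1331. The 6 calls in the other chaperone and stress lists became 3 by library size scaling, 1 with glmTreat, 3 with 6 h replicate 1 alone and 4 to 7 with a library left out. The 7 calls among cell type markers became 11 with DESeq2 and with the exact test, 2 with glmTreat, 2 with 6 h replicate 1 alone and 4 to 9 with a library left out (4 without 0 h replicate 3 or 6 h replicate 3). The ratio of Hspa1a to Hspa1b differed by 1.65 on the log2 scale and by 1.35 to 1.93 with a library left out, Dnajb1 over the pair by 1.89 (1.66 to 2.03) and Dnajb1 over Hsph1 by 2.46 (2.30 to 2.67). Replicate numbers are shared by the time points but could not be taken to pair the samples, since which pools share animals is not given: deviations of same-numbered libraries correlated at 0.004, 0.22 and 0.14, and 0 h replicate 1 did not correlate best with its own number. With the replicate block 1050 genes were DEGs, Hspa1a, Dnajb1 and Bag3 were DEGs at 1.87, 2.81 and 1.65, and Hspb1 at 1.79 had an adjusted p of 0.127. Except where the construction shows it (fewer libraries, a stricter null hypothesis), the cause of these differences was not tested.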
